A study of Mus musculus with 12 samples.

Results

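The genes described are 40 enzymes and core partners that write or remove methyl groups on histones and DNA, taken by symbol from a table of read counts for 39179 mouse gene IDs. All 40 were found in the table: 21 histone writers (methyltransferases and the Polycomb core), 13 histone erasers (demethylases) and 6 DNA methylation genes. RNA came from 2 wild-type (WT) and 2 LDHA-KO libraries of C57BL/6 mouse T cells, where LDHA is lactate dehydrogenase A, which turns pyruvate into lactate. In both genotypes naive CD4+ cells were cultured for 3 days under Th1 conditions on plate-bound anti-CD3 (5 µg/ml) with anti-CD28 (2 µg/ml), IL-2 (100 U/ml), IL-12 (10 ng/ml) and anti-IL-4 (10 µg/ml). They then received PMA (50 ng/ml) and ionomycin (1 µM) for 4 h with GolgiStop, which blocks protein secretion. The sources used here give neither the age of the mice nor the way LDHA was deleted. They do not say that replicates are separate animals or cultures either, so the p-values rest on differences between libraries that may be technical. The series title names an epigenetic mechanism linking aerobic glycolysis to Th1 differentiation, and the comparison asks which transcripts of the methylation machinery differ between the genotypes.

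Histone methyltransferases use S-adenosylmethionine to add methyl groups to lysines of histones, and the position sets the usual context of the mark. Methylation of H3K4 is found at active promoters and enhancers, that of H3K36 and H3K79 over transcribed genes, and that of H3K9 and H3K27 at silenced chromatin. Most demethylases, and the TET enzymes that oxidise 5-methylcytosine in DNA, need oxygen, iron and alpha-ketoglutarate. In CD4+ T cells, EZH2, the catalytic subunit of Polycomb repressive complex PRC2, and the DNA methyltransferases are known to restrain cytokine genes of other T helper fates.

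Library totals ranged from 919741 to 1293178 counts, so 1 count was worth 0.773 to 1.09 CPM (counts scaled to the library total) before TMM scaling. The CPM values of genes below are scaled to the total of the tested genes with TMM factors, so they differ slightly from this conversion. The members held 0.407% to 0.424% of each library. The strand setting of the counting is not given in the sources used here, and with the wrong setting the values below would be antisense reads. Tsix, the RNA antisense to Xist, held 3.68 to 4.81 times the counts of Xist, and mt-Nd6, on the opposite strand to most mitochondrial genes, held 3.72 to 6.21 times those of mt-Cytb. Tsix and mt-Nd6 thus led in every library, so the counts may come from the strand opposite to the transcripts. This was not tested, and every gene value below carries this limit. Ldha fell from 801 ± 8.31 to 47.1 ± 0.577 CPM (SD, n = 2 each), in the direction of the genotype labels (log2 fold change -4.09 with SE 0.11, adjusted p = 2.19e-30 in edgeR). The T cell genes Cd3d, Cd3e, Cd3g, Cd4, Lck, Cd2 and Cd5 were all detected, with a summed level of 1402 and 1476 CPM in WT and 1291 and 1275 CPM in LDHA-KO. Within that list Cd4 rose (0.51, SE 0.09, adjusted p = 3.63e-05 in edgeR), Cd2 (-0.94, SE 0.11, adjusted p = 1.75e-09 in edgeR) and Cd5 (-0.39, SE 0.08, adjusted p = 8.25e-05 in edgeR) fell, and the other 4 were not called. Of the 5 Th1 genes, 3 fell and 2 (Tbx21 and Stat4) were not called, with a median of -0.83. Ifng, the interferon gamma gene, fell from 1585 and 1580.0 CPM to 382 and 387 CPM (-2.04, SE 0.06, adjusted p = 2.46e-27 in edgeR), Il12rb2, which overlaps Serbp1, fell (-0.83, SE 0.12, adjusted p = 3.25e-07 in edgeR), and Cxcr3 fell (-1.35, SE 0.39, adjusted p = 0.00657 in edgeR). The call of Cxcr3 was lost without WT replicate 1 (-1.28), without LDHA-KO replicate 1 (-1.09) and in DESeq2 (adjusted p = 0.202). Of genes that mark other cells, the 3 NK cell genes were at 0, the B cell list summed to 4.52 to 10.7 CPM and the CD8 list to 1.58 to 7.92 CPM. The myeloid genes Lyz2 and Adgre1 were at 0 and Itgam and Cd14 at 0 or 1 count, while Csf1r, which overlaps Mir6983 and Gm52352, held 348 to 462 counts and rose (0.29, SE 0.08, adjusted p = 0.00500 in edgeR), a call lost without LDHA-KO replicate 2 (0.27, adjusted p = 0.0662). Gata3, the Th2 factor gene, rose from 7.65 and 8.70 CPM to 29.4 and 34.3 CPM (1.96, SE 0.32, adjusted p = 6.14e-06 in edgeR). Foxp3, the regulatory T cell factor gene, held 96 to 126 counts and was not called (0.28, SE 0.14, adjusted p = 0.139 in edgeR), Il4 held 2 to 5 counts, and Il17a was at 0. The part of these cell markers in the results below was not tested. A count of 0 allows up to 3 counts, or 2.32 to 3.26 CPM before TMM scaling, and this limit covers counting error only.

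Of the 40 members, 39 had enough counts to be tested, and 18 differed between genotypes (edgeR quasi-likelihood test, Benjamini-Hochberg adjusted p under 0.05 over 9914 genes). The genes that rose were Ezh2, Ehmt2, Kdm6b, Nsd1, Kdm1a, Suz12, Dnmt3a, Dot1l and Kdm2b. Those that fell were Setd7, Kdm5b, Kmt2a, Uhrf1, Kmt2d, Kdm3b, Kdm5a, Tet3 and Kdm4a. The 9 rises and 9 falls make up 46.2% of the tested members, beside 31.0% called over all tested genes (15.6% higher, 15.4% lower). The rises made up 50.4% of all calls here, and 38.3% where only library totals were used for scaling; 7 members then rose and 10 fell. The members had more counts than most tested genes, with a median of 93.7 CPM against 39.6 CPM, and the part of this in the share called was not tested. DESeq2 called 8 of the members, 20.5%, beside 11.0% over the genes it tested; 3 rose and 5 fell, beside 6.01% and 4.98%. Without LDHA-KO replicate 1, 6 members rose and 5 fell, and without LDHA-KO replicate 2, 7 rose and 5 fell. The median log2 fold change (LDHA-KO minus WT throughout) of the members was -0.03, and that of all tested genes -0.01. The changes were modest, and 0 members reached a 2-fold difference. In these bulk libraries, fewer cells of a type and less RNA per cell cannot be told apart.

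**Figure D1:**
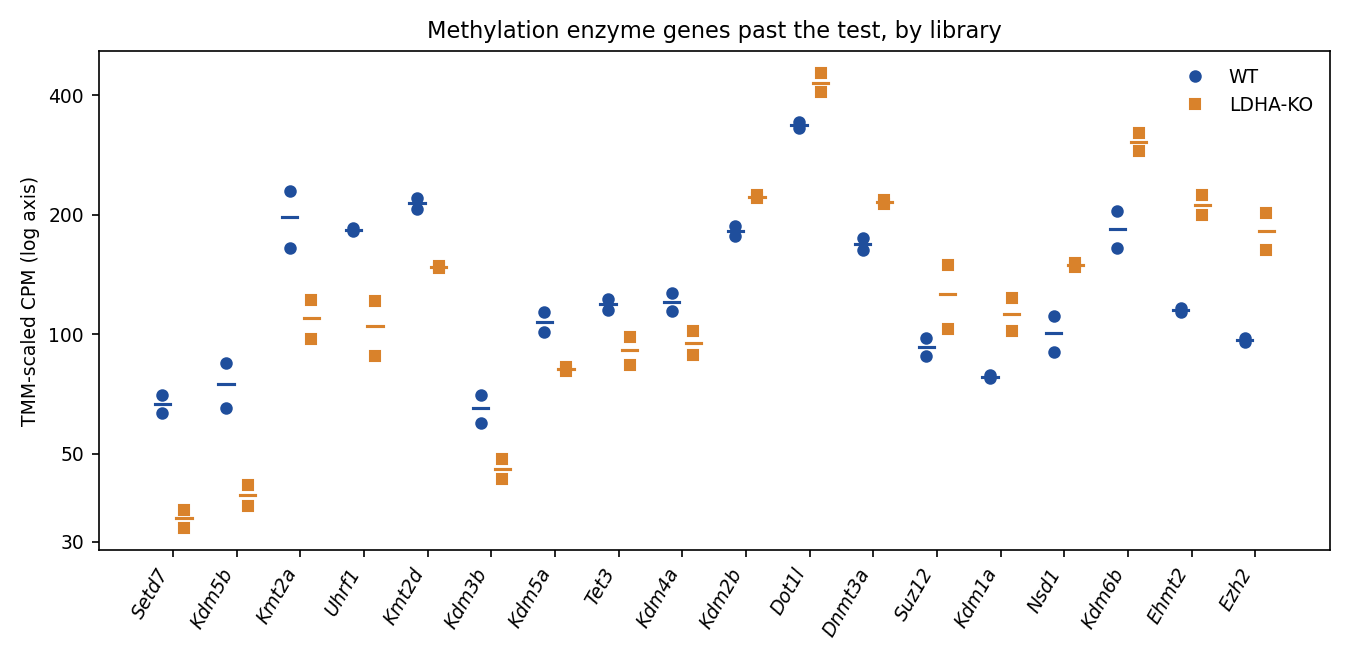
Level of each of the 18 members that passed the test, in TMM-scaled CPM on a log axis, for the 2 WT (circles) and 2 LDHA-KO libraries (squares), with bars at the group mean; genes are ordered by fold change. The genes run from Setd7 (63.3 and 70.4 CPM in WT, 32.6 and 36.2 in LDHA-KO) to Ezh2 (95.7 and 97.9 against 163 and 202). With 2 libraries per genotype, groups without overlap also occur among members not called, such as Eed and Dnmt1. A lack of overlap is therefore no further support for a call.

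Among the 8 writers of H3K4 methylation, 3 fell (37.5%, beside 31.0% called over all tested genes) and 5 were not called. Their median log2 fold change was -0.27. Kmt2a encodes the MLL1 methyltransferase (ENSMUSG00000002028, chromosome 9, 44803355 to 44881352, GRCm38.p6) and stood at 165 and 230.1 CPM in WT (216 and 291 counts) and at 97.2 and 122 CPM in LDHA-KO (86 and 139 counts). Both LDHA-KO libraries were below both WT libraries, although the WT libraries themselves differed, and the fall was 1.77-fold (log2 fold change -0.83 with SE 0.14, adjusted p = 5.13e-06 in edgeR). Kmt2d, the gene for the enhancer methyltransferase MLL4 (ENSMUSG00000048154, chromosome 15, 98831669 to 98874077), stood at 220.4 and 207 CPM in WT (288 and 262 counts) and at 147 and 149 CPM in LDHA-KO (130 and 169 counts). Its replicates lay close together in each genotype, and it fell 1.44-fold (log2 fold change -0.53 with SE 0.11, adjusted p = 0.000153 in edgeR). Setd7 (ENSMUSG00000037111, chromosome 3, 51515318 to 51560823) encodes a monomethyltransferase that also acts on proteins other than histones, and stood at 70.4 and 63.3 CPM in WT (92 and 80 counts) and at 36.2 and 32.6 CPM in LDHA-KO (32 and 37 counts). It had the lowest fold change of the 39 tested members in the fit to all libraries, a 1.95-fold fall without overlap of the groups (log2 fold change -0.97 with SE 0.20, adjusted p = 0.000178 in edgeR).

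The rest of the H3K4 group did not pass the test. Kmt2c, the close relative of Kmt2d, held 69 and 94 counts in WT against 43 and 50 in LDHA-KO (log2 fold change -0.46 with SE 0.20, adjusted p = 0.0700 in edgeR). It was called with library totals alone (-0.54, adjusted p = 0.0341) and without WT replicate 1 (-0.69, adjusted p = 0.0108). Kmt2b, the MLL2 gene, had a log2 fold change of -0.09 (SE 0.12). Setd1a and Setd1b, the catalytic subunits of the SET1 complexes that place most H3K4 trimethylation, had -0.03 (SE 0.20) and 0.09 (SE 0.20). Kmt2e, a divergent relative of the family, had 0.02 (SE 0.15) and overlaps Srpk2. The summed level of the 8 genes was 831 and 899 CPM in WT and 638 and 674 CPM in LDHA-KO. This sum includes Kmt2a, Kmt2d and Setd7, already called lower, so its lower level in LDHA-KO is not a separate result.

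The promoter of Kmt2a is shown because Kmt2a fell under every alternative tried and its window is dense in GC boxes. The window runs from 250 bases before to 50 after an annotated start, read 5′ to 3′ on the gene's strand (RefSeq, GRCm38.p6), and the table gave such windows for 30 of the 40 members. Capitals mark 3 motifs searched on both strands: GGGCGG (reverse complement CCGCCC), the GC box, and the E2F-type motifs TTTCCCGC and TTTGGCGC.
Kmt2a (chr9:44881240-44881539, minus strand): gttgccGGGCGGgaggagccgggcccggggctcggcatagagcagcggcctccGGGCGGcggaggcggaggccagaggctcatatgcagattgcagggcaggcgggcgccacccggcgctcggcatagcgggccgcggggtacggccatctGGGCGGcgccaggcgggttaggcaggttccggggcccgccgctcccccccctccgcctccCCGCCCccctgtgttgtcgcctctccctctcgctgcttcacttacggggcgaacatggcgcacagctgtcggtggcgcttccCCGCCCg
The window of Kmt2a holds 36 CpG dinucleotides and carries GC boxes but neither E2F-type motif. GC boxes are not particular to Kmt2a: GGGCGG was in 29 of the 41 member windows, of genes that rose, fell or were not called. Over all 32851 windows in the table, 35.7% held GGGCGG, 1.07% held TTTCCCGC and 0.514% held TTTGGCGC. The 41 windows of the members had a median of 28 CpG, against 7 over all windows. A match describes letters only, not a bound site.

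**Figure D2:**
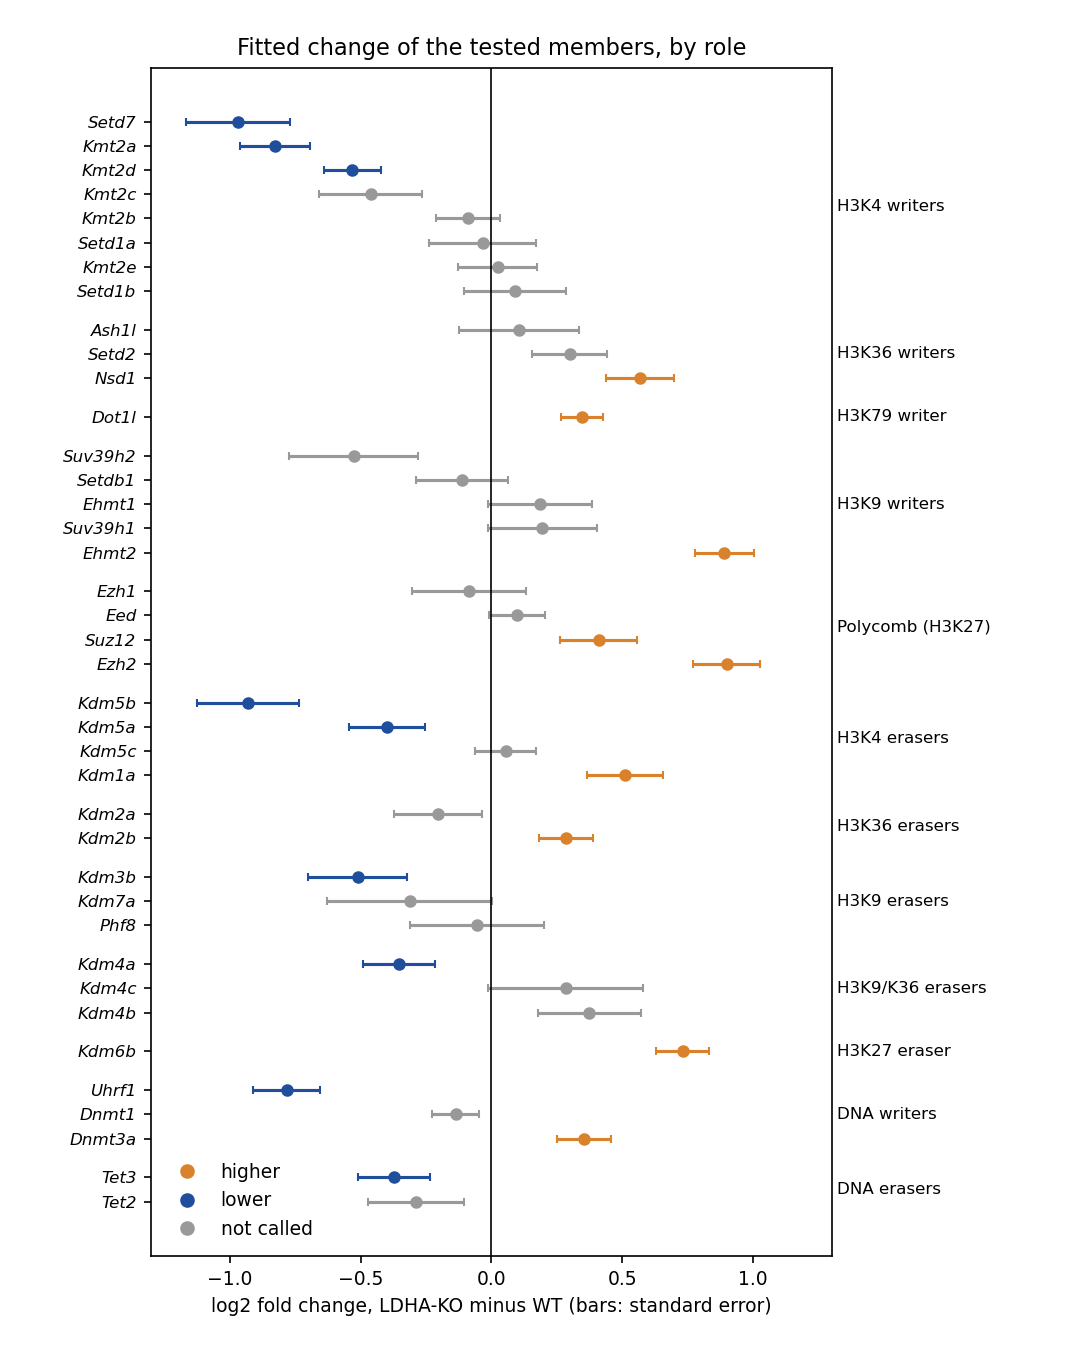
Fitted log2 fold change (LDHA-KO minus WT) of the 39 tested members with standard errors, grouped by the mark or reaction; colours give the call at an adjusted p under 0.05. The called H3K4 writers lie left of zero, whereas each called writer of H3K36, H3K79, H3K9 or H3K27 lies right of it. Of the 21 histone writers 38.1% were called, beside 31.0% over all tested genes.

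The 4 writers of H3K36 and H3K79 had positive values, and 2 of them rose (50.0%, beside 31.0% called over all tested genes). Nsd1, which encodes an H3K36 dimethyltransferase, stood at 90.3 and 111 CPM in WT (118 and 141 counts) and at 151 and 148 CPM in LDHA-KO (134 and 168 counts). Both LDHA-KO libraries were above both WT libraries, a 1.48-fold rise (log2 fold change 0.57 with SE 0.13, adjusted p = 0.000672 in edgeR). Dot1l, the gene for the H3K79 methyltransferase, stood at 332 and 343 CPM in WT (434 and 434 counts) and at 454 and 408 CPM in LDHA-KO (402 and 463 counts). It rose 1.27-fold with no overlap of the groups (log2 fold change 0.35 with SE 0.08, adjusted p = 0.000904 in edgeR). DESeq2 did not call Nsd1 (adjusted p = 0.0626) or Dot1l (adjusted p = 0.0513), while every edgeR alternative did. Setd2, the H3K36 trimethylation gene, had 0.30, SE 0.14, adjusted p = 0.109 in edgeR, and Ash1l, which overlaps Dap3, had 0.11 (SE 0.23).

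Among the 5 writers of H3K9, Ehmt2 rose and the other 4 did not pass the test. Ehmt2 encodes G9a, which dimethylates H3K9 as a dimer with the product of Ehmt1 (ENSMUSG00000013787, chromosome 17, 34898463 to 34914073), and stood at 114 and 116 CPM in WT (149 and 147 counts) and at 200.1 and 225 CPM in LDHA-KO (177 and 255 counts). The gap between genotypes was larger than the gap between replicates, and the rise was 1.85-fold (log2 fold change 0.89 with SE 0.11, adjusted p = 3.77e-08 in edgeR). Ehmt1 itself had 0.19 (SE 0.20), with groups that overlap. Suv39h1 and Suv39h2, which encode enzymes that trimethylate H3K9 in pericentric heterochromatin, had 0.19 (SE 0.21) and -0.53 (SE 0.25). Suv39h2 overlaps Dclre1c over 18397 bp, so its count is uncertain. Setdb1, known for silencing of retroelements, had -0.11 (SE 0.18).

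For H3K27, the PRC2 catalytic gene Ezh2 and its core partner Suz12 rose, and Ezh1 and Eed did not pass the test. Of these 4 genes 50.0% were called, beside 31.0% over all tested genes. Ezh2 (ENSMUSG00000029687, chromosome 6, 47530274 to 47595270) stood at 97.9 and 95.7 CPM in WT (128 and 121 counts) and at 202 and 163 CPM in LDHA-KO (179 and 185 counts). The LDHA-KO libraries differed from each other but both lay above WT, a 1.86-fold rise (log2 fold change 0.90 with SE 0.13, adjusted p = 2.98e-07 in edgeR). Suz12, whose product holds the complex together, stood at 88.0 and 98.1 CPM in WT (115 and 124 counts) and at 149 and 103 CPM in LDHA-KO (132 and 117 counts). One LDHA-KO library was thus only just above the WT range (log2 fold change 0.41 with SE 0.15, adjusted p = 0.0292 in edgeR). Suz12 was not called without LDHA-KO replicate 1 (0.16, adjusted p = 0.571), without WT replicate 1 (0.33, adjusted p = 0.144), with library totals alone (0.33, adjusted p = 0.0951), with a replicate block (0.42, adjusted p = 0.0507) or by DESeq2 (adjusted p = 0.290). Eed, which binds the finished mark, had 0.10 (SE 0.11), and Ezh1, the alternative catalytic subunit, had -0.09 (SE 0.22).

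The promoters of Ezh2 and Suz12 are shown because both genes rose and both windows hold an E2F-type motif, with capitals for the same 3 motifs (RefSeq, GRCm38.p6).
Ezh2 (chr6:47594981-47595280, minus strand): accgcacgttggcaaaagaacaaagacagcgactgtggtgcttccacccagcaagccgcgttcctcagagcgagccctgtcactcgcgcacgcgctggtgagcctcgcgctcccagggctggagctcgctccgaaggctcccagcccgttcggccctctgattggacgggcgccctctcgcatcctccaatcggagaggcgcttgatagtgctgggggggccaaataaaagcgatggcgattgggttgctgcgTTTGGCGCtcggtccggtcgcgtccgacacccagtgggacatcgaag
Suz12 (chr11:79992856-79993155, plus strand): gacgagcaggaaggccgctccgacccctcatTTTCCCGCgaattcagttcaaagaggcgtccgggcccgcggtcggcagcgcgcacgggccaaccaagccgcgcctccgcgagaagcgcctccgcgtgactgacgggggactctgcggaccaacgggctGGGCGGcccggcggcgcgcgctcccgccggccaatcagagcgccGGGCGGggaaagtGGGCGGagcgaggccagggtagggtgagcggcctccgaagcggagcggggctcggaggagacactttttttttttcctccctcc
The Ezh2 window holds TTTGGCGC and the Suz12 window TTTCCCGC. Among members with a window, the only other one holding either of these exact motifs is Dnmt1, which was not called.

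Dividing cells make more EZH2, UHRF1 and DNMT1, so genes of proliferation were read beside them. Of 20 such genes, 4 rose (Mki67, Top2a, Ccna2 and Bub1) and 1 fell (Rrm2), with a median log2 fold change of 0.06. The share called in either direction was below the 31.0% called over all tested genes. The summed level of the 20 genes was 2501 and 2534 CPM in WT and 2780 and 2734 CPM in LDHA-KO. Bub1, a spindle checkpoint kinase gene, had 1.07 (SE 0.28), Ccna2, the cyclin A2 gene, 0.35 (SE 0.08), and Rrm2, a ribonucleotide reductase gene, -0.63 (SE 0.14). Top2a (0.34 (SE 0.09)) lost its call without WT replicate 1 (0.22) and LDHA-KO replicate 2 (0.29). Mki67 (0.21 (SE 0.08)) lost it without WT replicate 1 (0.18), WT replicate 2 (0.25) and LDHA-KO replicate 1 (0.15), and was called in only 2 of the 10 alternatives. DESeq2 called 0 of these 20 genes, and 6 had an unadjusted edgeR p under 0.05. The part of proliferation in the changes of Ezh2 and Uhrf1 was not tested.

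Of the 4 H3K4 demethylase genes, 2 fell, 1 rose and 1 was not called. Kdm5b, which removes H3K4 trimethylation (ENSMUSG00000042207, chromosome 1, 134560178 to 134632878), stood at 65.0 and 84.6 CPM in WT (85 and 107 counts) and at 41.8 and 37.0 CPM in LDHA-KO (37 and 42 counts). The groups did not overlap, and it fell 1.91-fold (log2 fold change -0.93 with SE 0.19, adjusted p = 0.000213 in edgeR). Kdm5a, of the same family, stood at 114 and 101 CPM in WT (149 and 128 counts) and at 82.5 and 81.0 CPM in LDHA-KO (73 and 92 counts) (log2 fold change -0.40 with SE 0.14, adjusted p = 0.0309 in edgeR). Its call was lost without WT replicate 1 (-0.31, adjusted p = 0.217), LDHA-KO replicate 1 (-0.40, adjusted p = 0.103) and LDHA-KO replicate 2 (-0.38, adjusted p = 0.188) and in DESeq2 (adjusted p = 0.370). Kdm5c, the X-linked family member, had 0.05 (SE 0.12), and its Y-linked counterpart Kdm5d held 0 counts in every library. Kdm1a, the flavin-dependent demethylase LSD1, stood at 78.8 and 77.5 CPM in WT (103 and 98 counts) and at 123 and 102 CPM in LDHA-KO (109 and 116 counts). It rose 1.43-fold (log2 fold change 0.51 with SE 0.14, adjusted p = 0.00554 in edgeR), and its call was lost without LDHA-KO replicate 1 (0.40, adjusted p = 0.105) and in DESeq2 (adjusted p = 0.165). Kdm1a overlaps Luzp1 over 4193 bp, and Kdm5a overlaps Ccdc77.

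The H3K27 demethylase gene Kdm6b encodes JMJD3, which is induced by stimulation in immune cells (ENSMUSG00000018476, chromosome 11, 69398508 to 69420367). It stood at 204 and 165 CPM in WT (267 and 209 counts) and at 291 and 321 CPM in LDHA-KO (257 and 365 counts). Every LDHA-KO library was above every WT library, and the rise was 1.66-fold (log2 fold change 0.73 with SE 0.10, adjusted p = 1.81e-07 in edgeR). Ezh2 and Kdm6b, a writer and an eraser of the same mark, thus both rose. The other H3K27 demethylase gene, Kdm6a, is X-linked and not one of the 40. It fell from 58.9 and 64.1 CPM to 31.7 and 36.1 CPM (log2 fold change -0.85 with SE 0.20, adjusted p = 0.00110 in edgeR) and was not called by DESeq2 (adjusted p = 0.0943).

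Of 8 erasers of H3K9 and H3K36, 2 fell and 1 rose, with adjusted p-values near the threshold. Called were 33.3% of the 6 that act on H3K9 and 50.0% of the 2 on H3K36 alone, beside 31.0% over all tested genes. Kdm3b, an H3K9 demethylase gene, stood at 59.7 and 70.4 CPM in WT (78 and 89 counts) and at 48.6 and 43.1 CPM in LDHA-KO (43 and 49 counts) (log2 fold change -0.51 with SE 0.19, adjusted p = 0.0351 in edgeR). Kdm4a, which acts on trimethylated H3K9 and H3K36, stood at 127 and 115 CPM in WT (166 and 145 counts) and at 102 and 88.9 CPM in LDHA-KO (90 and 101 counts) (log2 fold change -0.35 with SE 0.14, adjusted p = 0.0451 in edgeR). Kdm2b, an H3K36 demethylase gene whose product also brings a PRC1 complex to CpG islands, stood at 187 and 177 CPM in WT (245 and 224 counts) and at 224 and 221 CPM in LDHA-KO (198 and 251 counts) (log2 fold change 0.29 with SE 0.10, adjusted p = 0.0290 in edgeR). The groups of these 3 genes did not overlap, but each call depended on single libraries. Kdm3b was not called without WT replicate 2 (-0.39, adjusted p = 0.224), LDHA-KO replicate 1 (-0.58, adjusted p = 0.0633) or LDHA-KO replicate 2 (-0.41, adjusted p = 0.279). Kdm4a lost its call without WT replicate 1 (-0.28, adjusted p = 0.248), LDHA-KO replicate 1 (-0.43, adjusted p = 0.0589) and LDHA-KO replicate 2 (-0.24, adjusted p = 0.406). Kdm2b was not called without any of the 4 libraries (0.24 to 0.33, adjusted p from 0.0547 to 0.170). In DESeq2 the adjusted p-values were 0.382 for Kdm3b, 0.424 for Kdm4a and 0.318 for Kdm2b. Of the 5 not called, Kdm2a had -0.20 (SE 0.17), Kdm4b 0.37 (SE 0.20), Kdm4c 0.28 (SE 0.30), Kdm7a -0.31 (SE 0.31) and Phf8 -0.05 (SE 0.26). Kdm7a had 18 to 36 counts per library and overlaps 4930599N23Rik over 11693 bp.

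In the DNA methylation group, Uhrf1 and Tet3 fell, Dnmt3a rose, and Dnmt1 and Tet2 did not pass the test. Uhrf1 encodes the protein that binds hemimethylated DNA and brings DNMT1 to it after replication (ENSMUSG00000001228, chromosome 17, 56303337 to 56323486). It stood at 182 and 185 CPM in WT (238 and 234 counts) and at 88.2 and 122 CPM in LDHA-KO (78 and 138 counts). The WT libraries were nearly equal, the LDHA-KO libraries were not, and the fall was 1.72-fold (log2 fold change -0.78 with SE 0.13, adjusted p = 4.33e-06 in edgeR). Dnmt1, the maintenance methyltransferase gene, stood at 293 and 299 CPM in WT (383 and 378 counts) and at 252 and 284 CPM in LDHA-KO (223 and 322 counts) (log2 fold change -0.14 with SE 0.09, adjusted p = 0.265 in edgeR). Dnmt3a, the de novo methyltransferase gene, stood at 174 and 163 CPM in WT (228 and 206 counts) and at 214 and 217 CPM in LDHA-KO (189 and 247 counts) (log2 fold change 0.35 with SE 0.10, adjusted p = 0.00774 in edgeR). Its call was lost without WT replicate 2 (0.31, adjusted p = 0.0806), without LDHA-KO replicate 2 (0.35, adjusted p = 0.0711) and in DESeq2 (adjusted p = 0.189).

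Of the TET genes, Tet3 stood at 122 and 115 CPM in WT (160 and 146 counts) and at 83.7 and 98.6 CPM in LDHA-KO (74 and 112 counts). The groups did not overlap (log2 fold change -0.37 with SE 0.14, adjusted p = 0.0364 in edgeR), but the call was lost when any of the 4 libraries was left out (-0.50 to -0.26, adjusted p from 0.0534 to 0.296), with a replicate block (-0.37, adjusted p = 0.0525) and in DESeq2 (adjusted p = 0.373). Tet2, the family member most studied in T cells, stood at 59.7 and 71.2 CPM in WT (78 and 90 counts) and at 61.0 and 47.5 CPM in LDHA-KO (54 and 54 counts). Its groups overlap (log2 fold change -0.29 with SE 0.18, adjusted p = 0.248 in edgeR). Tet1 was too low to test, with 0 counts in both WT libraries and 1 and 4 counts in LDHA-KO.

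The promoter of Uhrf1 at the first annotated start is shown because Uhrf1 was the DNA methylation gene called under every alternative, with its GC box in capitals (RefSeq, GRCm38.p6).
Uhrf1 (chr17:56303087-56303386, plus strand): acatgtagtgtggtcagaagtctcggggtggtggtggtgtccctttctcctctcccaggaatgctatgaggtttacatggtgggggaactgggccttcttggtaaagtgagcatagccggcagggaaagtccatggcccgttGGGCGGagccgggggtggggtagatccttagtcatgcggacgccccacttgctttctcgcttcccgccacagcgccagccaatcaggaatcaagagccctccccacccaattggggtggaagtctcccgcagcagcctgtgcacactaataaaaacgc
This window holds 12 CpG dinucleotides, and the window of a second annotated start of Uhrf1 holds 33. Neither holds TTTCCCGC or TTTGGCGC. Only these exact letters were searched. The printed window holds the similar CTTCCCGC, and the second window the similar TTTCGCGC.

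**Figure D3:**
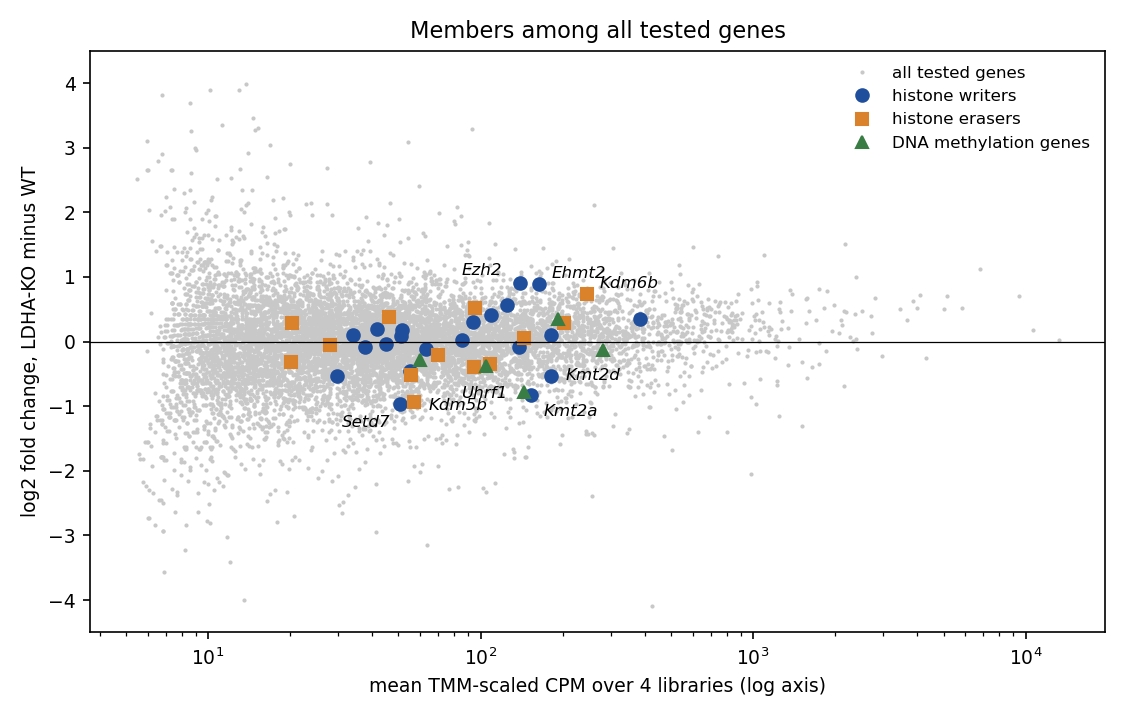
Log2 fold change (LDHA-KO minus WT) against mean TMM-scaled CPM over the 4 libraries on a log axis, for all 9914 tested genes (grey) and the 39 tested members by class. Members lie between 20.2 and 384 CPM and within -0.97 and 0.90 in log2 fold change; the 8 named genes are those called under every alternative.

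Histone writers and erasers both held genes of each direction. Of 21 writers, 5 rose and 3 fell (38.1% called), and of 13 erasers, 3 rose and 4 fell (53.8% called), beside 31.0% over all tested genes (15.6% higher, 15.4% lower). The writers' share is near that background. Fewer erasers were called as lower without WT replicate 1 (2), LDHA-KO replicate 1 (1) or LDHA-KO replicate 2 (1), and as higher without LDHA-KO replicate 1 (1). The median log2 fold change was 0.09 for writers and -0.05 for erasers, a difference of 0.14. This difference was -0.05 without WT replicate 2, 0.02 without LDHA-KO replicate 1, 0.08 without LDHA-KO replicate 2 and 0.31 without WT replicate 1, so its direction depended on 1 library. The eraser median itself was positive when WT replicate 2 (0.15) or LDHA-KO replicate 1 (0.07) was left out. The summed writer level was 2051 and 2204 CPM in WT and 2335 and 2273 CPM in LDHA-KO. The summed eraser level was 1140 and 1139 CPM in WT and 1241 and 1228 CPM in LDHA-KO. Their ratio was 1.80 and 1.94 in WT and 1.88 and 1.85 in LDHA-KO, so the LDHA-KO libraries lay inside the WT range. By mark, the called H3K4 writers (Setd7, Kmt2a, Kmt2d) fell, and the called writers of H3K9, H3K27, H3K36 and H3K79 rose (Ehmt2, Ezh2, Suz12, Nsd1, Dot1l). Called were 37.5% of the 8 H3K4 writers and 33.3% of the 9 writers of H3K9 and H3K27, near the 31.0% of all tested genes. Of the 4 writers of H3K36 and H3K79, 50.0% were called. Values of either sign occurred among the H3K4 writers (2 positive, 6 negative) and the H3K9 and H3K27 writers (6 positive, 3 negative). The difference between marks was not tested.

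A core of 8 members was called in the same direction under all 10 alternatives: Kmt2a, Kmt2d, Setd7, Kdm5b and Uhrf1 fell, and Ehmt2, Ezh2 and Kdm6b rose. These are the same 8 that DESeq2 called (20.5% of tested members, beside 11.0% over the genes it tested). The remaining alternatives thus removed none of them. The share of all tested genes called under every alternative was not computed. The other 10 called members each lost the call under at least 1 alternative. Of the 18 called members, 7 overlap no other RefSeq gene (Kmt2d, Nsd1, Dot1l, Ehmt2, Suz12, Kdm3b and Uhrf1). Among the core, Kmt2a overlaps Gm39326 over 26434 bp, Kdm6b overlaps Gm51903 over 4855 bp and Ezh2 overlaps F830010H11Rik over 62 bp. No counts were matched by symbol to these partners. Setd7 overlaps 5031434O11Rik over 839 bp (6 to 15 counts per library), and Kdm5b overlaps Mgat4e over 1569 bp (0 or 1 count). Counts of overlapping genes are uncertain, since how reads over them were assigned is not given in the sources used here.

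**Figure D4:**
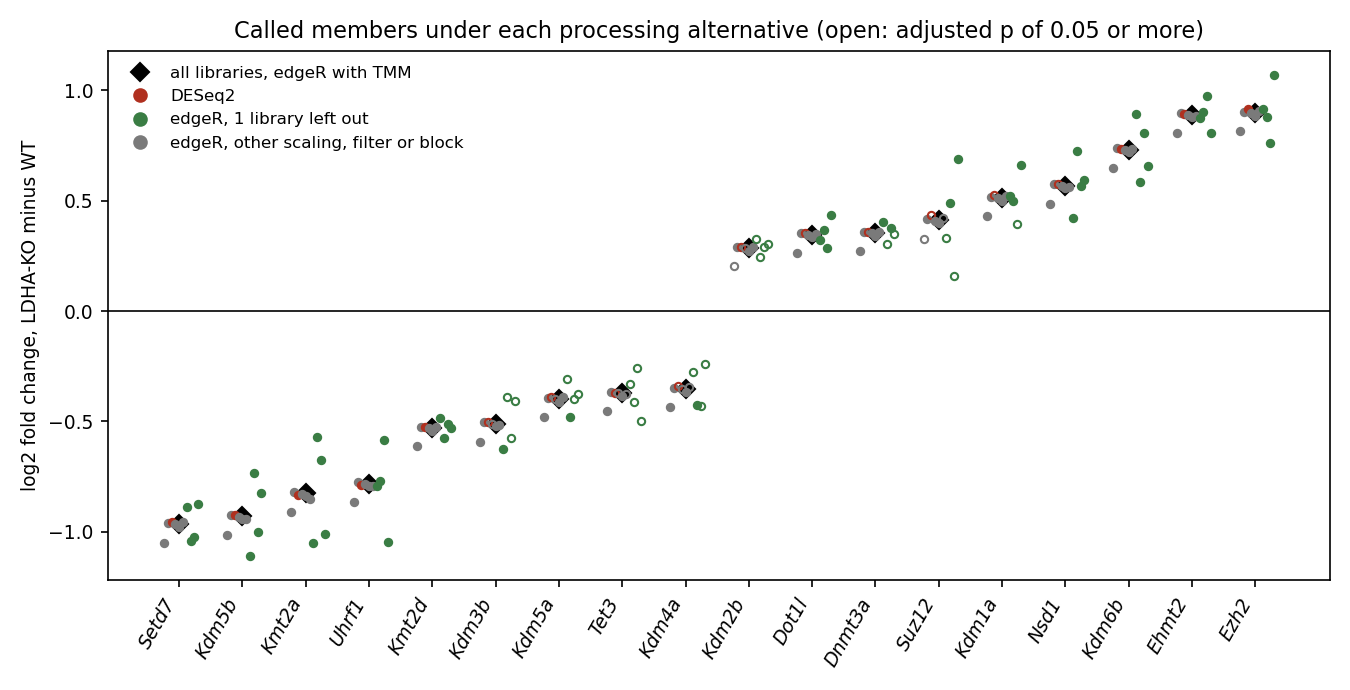
Log2 fold change (LDHA-KO minus WT) of the 18 called members in the fit to all libraries (diamonds) and under each of 10 alternatives (circles, by kind); open symbols are adjusted p-values of 0.05 or more. For Ezh2, Ehmt2, Kdm6b, Kmt2a, Kmt2d, Setd7, Kdm5b and Uhrf1 all symbols are filled; Suz12 spreads from 0.16 to 0.69.

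Partners of these enzymes were read from 8 further lists of 109 genes, of which 88 were tested, 10 rose and 8 fell (20.5%, beside 31.0% of all tested genes). Of the 12 COMPASS partners, shared subunits of the H3K4 methyltransferase complexes, edgeR called 0 and DESeq2 called 0, and 3 had an unadjusted edgeR p under 0.05 (Wdr5, Hcfc1 and Cxxc1). Their values ran from -0.42 (Rbbp5) to 0.50 (Dpy30), with a median of 0.10. Wdr5 was called without WT replicate 2 (0.68), and Hcfc1 without WT replicate 1 (-0.29). Of 6 tested PRC2 partners, Jarid2 rose (0.34, SE 0.10, adjusted p = 0.00614 in edgeR) and Aebp2 fell (-0.27, SE 0.07, adjusted p = 0.00184 in edgeR). That is 33.3% called, beside 31.0% of all tested genes. Without LDHA-KO replicate 2, Jarid2 (0.31) and Aebp2 (-0.17) were not called. The call of Aebp2 was also lost without WT replicate 1 (-0.19). In DESeq2 the adjusted p-values were 0.171 for Jarid2 and 0.0836 for Aebp2.

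Of 17 tested readers of methylated histones and DNA, 2 rose and 2 fell (23.5%, beside 31.0% of all tested genes). Cbx1, the heterochromatin protein HP1 beta gene, rose from 49.7 and 52.2 CPM to 97.2 and 102 CPM (log2 fold change 0.97 with SE 0.16, adjusted p = 7.07e-06 in edgeR). Cbx5, the HP1 alpha gene, fell (-0.66, SE 0.18, adjusted p = 0.00434 in edgeR), with its call lost without LDHA-KO replicate 2 (-0.44). The methyl-CpG binding gene Mbd2 fell (-0.53, SE 0.13, adjusted p = 0.00211 in edgeR) and Mbd3 rose (0.45, SE 0.13, adjusted p = 0.00646 in edgeR). Mbd3 was not called without WT replicate 2 (0.36) or LDHA-KO replicate 2 (0.45). DESeq2 called Cbx1 and not the other 3.

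Of 7 further DNA methylation genes tested, 3 rose and 1 fell (57.1%, beside 31.0% of all tested genes). Gadd45g rose from 28.3 and 32.4 CPM to 96.1 and 93.3 CPM (log2 fold change 1.64 with SE 0.19, adjusted p = 2.00e-09 in edgeR), and Gadd45b from 112 and 106 CPM to 239 and 243 CPM (log2 fold change 1.15 with SE 0.11, adjusted p = 3.95e-11 in edgeR). Both are stress and activation genes for which a link to DNA demethylation is among several reported roles. Apobec3, a cytidine deaminase gene of antiviral defence that overlaps Cbx7, fell (-0.65, SE 0.12, adjusted p = 3.23e-05 in edgeR). Dnmt3b, a de novo methyltransferase gene with 7 and 8 counts in WT against 15 and 14 in LDHA-KO, rose (1.28, SE 0.44, adjusted p = 0.0217 in edgeR). Its call was lost when any of the 4 libraries was left out (1.08 to 1.53 on the log2 scale) and in DESeq2 (adjusted p = 0.296).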

How the data were processed

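The authors deposited a table of raw read counts per Ensembl gene ID for the 4 RNA libraries; its values are whole numbers with differing totals. The submitters' processing notes list STAR 2.3.0e, HTSeq 0.6.0, Bowtie2 2.2.6, Trimmomatic 0.33 and FastQC 0.11.2, and the builds mm10 and GRCm38, without role or order, and no annotation or strand setting was found in the labels. The column names carry genotype and number but no assay, and were taken as the RNA libraries because they count reads per gene. Of 43374 rows, 4195 repeats with identical values were removed. Symbols came from an Ensembl ID table, positions and promoters from RefSeq on GRCm38.p6. The 8 chromatin and input samples were not analysed here.

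Genes passing edgeR's default filter (minimum count 10, total 15) were fitted with edgeR 4.0.16 in R 4.3.3 (quasi-likelihood F-test, TMM scaling, genotype as the only factor), with Benjamini-Hochberg adjustment over 9914 genes. The procedure was tested on simulated data. The SE is the fold change over the root of F, and printed CPM include the TMM factors. Alternatives were library totals alone, relative log expression factors, DESeq2 1.42.0, no filter, CPM above 20 in 2 libraries, a replicate block, and leaving out each library. Replicates differed slightly more than counting noise, with a chi-square per gene of 1.15 for WT and 1.23 for LDHA-KO. All members are accounted for and called ones given in full; of each other list, called genes are named, up to the 6 with the smallest adjusted p. Members and lists were chosen with earlier results of these data known. Prmt1 matched no ID by symbol and was not analysed here. The result of 1 called gene of these lists is not reported here.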

Additional observations from a re-analysis of the deposited data

How the results depend on the processing

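DESeq2 called 573 genes higher and 475 lower over all genes, where edgeR called 1549 and 1527. Among the members it called 3 higher and 5 lower, with 2 writers higher, 1 eraser higher, 1 eraser lower, 0 DNA methylation genes higher and 1 lower. With no filter on low counts, 5 members were lower, among them 1 eraser and 1 DNA methylation gene. With library totals alone, 38.3% of all calls were higher against 50.4%, the median of all tested genes shifted by -0.08, and 7 members rose and 10 fell. Leaving out each library in turn gave 1018 to 1231 genes higher and 955 to 1208 lower, and 6 to 7 members higher and 5 to 7 lower. It gave 1 to 2 erasers higher and 1 to 3 lower, and 0 to 1 DNA methylation genes higher with 1 lower in each case. Without LDHA-KO replicate 2, 1018 genes were higher and 955 lower. The lone library left in a genotype is then assumed to vary like the other group.

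The labels number the libraries 1 and 2 in both genotypes and name no animal, litter or day that a number would stand for. As the labels state no pairing, the numbers were not taken as pairs. The deviations of equally numbered libraries correlated at -0.0275 across genes. Replicates differed only slightly more than counting noise, so this value cannot show whether the libraries were paired. With the replicate block, 1397 genes were higher and 1406 lower, and 8 and 7 members, with 1 DNA methylation gene lower; Suz12, Kdm4a and Tet3 were no longer called. Depth limits the members: at 18 to 463 counts per library among those tested, standard errors ran from 0.08 to 0.31 on the log2 scale, and values of up to 0.53 in size (Suv39h2) did not pass the test.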

Other observations

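Genes that supply or use the cofactors of these enzymes moved in both directions: of 19 tested, 6 rose and 3 fell, with a median log2 fold change of 0.11. The share called was 47.4%, beside 31.0% over all tested genes. Mat2a, which encodes the catalytic subunit of the enzyme that makes S-adenosylmethionine, fell from 130.1 and 128 CPM to 73.5 and 52.0 CPM (log2 fold change -1.07 with SE 0.15, adjusted p = 3.91e-07 in edgeR) and overlaps Ggcx. Its regulatory subunit gene Mat2b fell from 57.5 ± 4.16 to 28.3 ± 4.83 CPM (SD, n = 2 each), with adjusted p = 0.000295 in edgeR and 0.0509 in DESeq2. Ahcy, whose product clears the by-product S-adenosylhomocysteine, rose from 16.1 and 19.0 CPM to 35.0 and 32.6 CPM (log2 fold change 0.94 with SE 0.27, adjusted p = 0.00589 in edgeR). It was not called without WT replicate 1 (0.82) or by DESeq2 (adjusted p = 0.193). Ogdh, which consumes alpha-ketoglutarate, rose (0.75, SE 0.15, adjusted p = 0.000120 in edgeR), and Glud1, which can make it from glutamate, fell (-0.70, SE 0.08, adjusted p = 1.32e-09 in edgeR). Sdha, a subunit gene of succinate dehydrogenase, rose (0.52, SE 0.13, adjusted p = 0.00198 in edgeR) and was not called by DESeq2 (adjusted p = 0.102).

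Of 6 tested arginine methyltransferase genes, Prmt3 rose (0.81, SE 0.28, adjusted p = 0.0213 in edgeR) and Prmt6 fell (-0.63, SE 0.22, adjusted p = 0.0285 in edgeR). That is 33.3% called, beside 31.0% of all tested genes. Prmt3 was not called without WT replicate 2 (0.57) or LDHA-KO replicate 1 (0.50), and Prmt6 not without WT replicate 1 (-0.45) or LDHA-KO replicate 2 (-0.50). Of 17 further lysine methyltransferase genes tested, Nsd2 rose (0.32, SE 0.12, adjusted p = 0.0428 in edgeR), and Kmt5b (-0.48, SE 0.19, adjusted p = 0.0486 in edgeR) and Prdm4 (-0.63, SE 0.19, adjusted p = 0.00999 in edgeR) fell. In this list 17.6% were called, beside 31.0% of all tested genes. Nsd2 was not called without WT replicate 1 (0.36), WT replicate 2 (0.29) or LDHA-KO replicate 1 (0.22). Kmt5b lost its call without WT replicate 2 (-0.32), LDHA-KO replicate 1 (-0.39) or LDHA-KO replicate 2 (-0.59), and Prdm4 without WT replicate 2 (-0.50) or LDHA-KO replicate 2 (-0.52). Of 10 genes tested from a further list of demethylases and related genes, 2 rose (Jmjd6 and Jarid2) and 1 fell (Kdm6a). Jarid2 is the PRC2 partner given above and its call is the same one, so it is not a further demethylase call. Jmjd6 had 0.59, SE 0.16, adjusted p = 0.00290 in edgeR, and overlaps Mettl23. For Prmt3, Prmt6, Nsd2, Kmt5b, Prdm4 and Jmjd6 the adjusted p-values in DESeq2 ran from 0.138 to 0.409.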
